A study of Mus musculus with 12 samples.

Results

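The replication-dependent histone genes encode the core histones H2A, H2B, H3 and H4 and the linker histone H1 that package new DNA. They were taken here as every gene in the count tables whose symbol starts with Hist1h, Hist2h, Hist3h or Hist4h, which gave 68 of 24421 genes: 6 for H1, 18 for H2A, 19 for H2B, 12 for H3 and 13 for H4. By their annotated position on GRCm38, 54 lie on chromosome 13, 10 on chromosome 3, 3 on chromosome 11 and 1 on chromosome 6. One of the 19 H2B symbols, Hist3h2bb-ps, is annotated as a pseudogene.

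The RNA came from the hippocampus of C57/Bl6 mice aged 6 weeks and had been pelleted through a sucrose cushion, a step that collects RNA sedimenting with ribosomes. The 12 libraries fall by label into 6 control and 6 fear case libraries. The protocol is worded alike for both groups: mice were housed singly, spent 8 min in an unfamiliar context, were returned to their own cage for 7 min and were killed 15 min after the start. The labels do not say how the control mice were handled, and no genetic change is named for either group. No RNA from before the cushion was analysed here, and in bulk tissue fewer cells of a type and less RNA per cell cannot be told apart. Libraries held 18.6 to 44.2 M gene counts, the highest being fear case 6, which also had the largest share of counts on the ribosomal RNA precursor Rn45s (12.5%, against 4.55% to 7.98% in the others). The early response genes Fos, Npas4 and Arc, used as a check of the labels, were higher in the fear case libraries by edgeR's quasi-likelihood test (log2 fold changes of 2.25, 2.06 and 0.80, adjusted p of 1.1e-05, 3.0e-07 and 0.00036). Neuronal markers were abundant in every library, with a summed level of 9640 to 10687 CPM (counts per 1000000 scaled gene counts).

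Most messenger RNAs end in a poly(A) tail, but replication-dependent histone mRNAs end in a short conserved hairpin instead. This stem-loop is bound by SLBP, the stem-loop binding protein, which acts in the processing, translation and decay of the transcript, and together with the U7 snRNP it directs cleavage just after the hairpin. Their synthesis is tied to S phase, so dividing cells make most of them, while non-dividing cells such as neurons draw mainly on replication-independent variants with poly(A) tails. Some of these genes also give polyadenylated transcripts in differentiated cells.

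The stem-loop is shown because it is the feature that sets the transcript end of these genes, and the genes printed are abundant members or members with a low p. In GENCODE transcripts (release M21) the histone stem-loop was found after the stop codon of 46 of the 68 genes, 21 to 58 bases past it. Capitals mark both arms of the stem and the loop, on GRCm38 and 5′ to 3′ on the gene's strand.
Hist1h1e: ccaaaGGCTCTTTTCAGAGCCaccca
Hist3h2a: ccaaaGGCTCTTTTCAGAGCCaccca
Hist3h2ba: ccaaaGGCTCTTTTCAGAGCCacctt
Hist1h3e: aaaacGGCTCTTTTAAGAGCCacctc
Hist1h4d: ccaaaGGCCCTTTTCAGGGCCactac
Hist1h4h: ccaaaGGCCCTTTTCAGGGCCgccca
Hist1h4i: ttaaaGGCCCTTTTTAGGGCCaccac
These lie at chr13:23621777-23621802 (Hist1h1e, minus strand), chr11:58955167-58955192 (Hist3h2a, plus), chr11:58949344-58949369 (Hist3h2ba, plus), chr13:23561898-23561923 (Hist1h3e, minus), chr13:23581945-23581970 (Hist1h4d, plus), chr13:23531453-23531478 (Hist1h4h, plus) and chr13:22040961-22040986 (Hist1h4i, minus).

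The core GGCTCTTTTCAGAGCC was the most frequent, in 26 genes, of which 3 encode H1, 10 H2A, 8 H2B and 5 H3. It was in no H4 gene. The core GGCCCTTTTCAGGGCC was in 7 genes, all of them H4. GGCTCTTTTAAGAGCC was in 6 genes, and each of the other 5 cores in 1 or 2. Among genes with at least 70 annotated bases after the stop codon, 42 of 46 members held the stem-loop within 100 bases of it (91.3%), against 2 of 20503 other protein-coding genes (0.00975%), H2afx and H2bfm. H2afx encodes an H2A variant and is known to give both a stem-loop and a polyadenylated mRNA. The 4 members without it were Hist1h2bc, Hist2h2be, Hist1h2bq and Hist1h2br. For 18 of the 22 members in which no stem-loop was found, fewer than 70 bases are annotated after the stop codon, among them Hist1h2af, Hist2h2bb and Hist1h2bn with at most 1 base, where the search could not have shown it.

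Histone genes of this class were read in all 12 libraries. Summed over the 68 genes, controls held 712 to 1077 CPM of all gene counts with a median of 843, and fear case libraries held 487 to 923 CPM with a median of 740. The ranges overlapped, with 3 of the 6 fear case libraries below every control and none above. The ratio of the group means was 0.853, or -0.23 on the log2 scale, and -0.13 without fear case 6. Without Hist1h2af, the most read of these genes, the log2 ratio was -0.16, a calculation added after the data were seen. By type, H2A took 46.0% of all the counts on these genes, H1 23.4%, H4 16.6%, H2B 12.5% and H3 1.5%. These shares cover reads placed uniquely. In each library 67.8 to 115 M alignments, not only histone ones, were set aside for matching several loci.

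**Figure D1:**
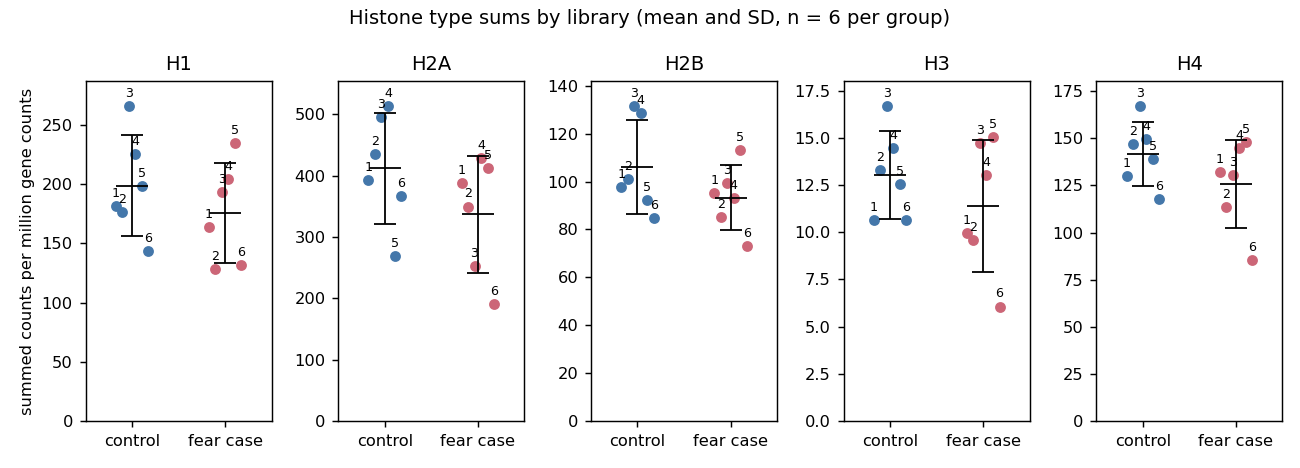
Counts summed over all genes of a histone type in each library, as CPM of all gene counts, with numbers giving the replicate and bars the mean and SD of 6 libraries per group. In each of the 5 panels the groups overlap; control 3 or 4 is the highest control, and fear case 6 is the lowest fear case library for H2A, H2B, H3 and H4.

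No histone gene of this class passed the test between the groups. Of the 68 genes, 43 had enough counts to be tested, and edgeR's quasi-likelihood test called 0 of them at an adjusted p under 0.05, beside 0.103% of all 14564 genes tested (0.0549% lower and 0.0481% higher). Over all genes these were 15 calls, which became 9 without control 3 or without fear case 2 and 128 without fear case 6, with 0 histone genes among them each time. DESeq2 and limma-voom also called 0. At an unadjusted p under 0.05 there were 3 of 43, beside 7.14% of all genes, and 4 of 43 by each of the other tools. The tested genes leaned to lower values in the fear case libraries: 30 of 43 had a negative log2 fold change (69.8%, against 51.4% of all genes tested), with a median of -0.12 against -0.0046 over all genes. A pattern of this direction was already known from these libraries when the genes were chosen, and no test was made over the list. The median rested in part on single libraries: it was -0.036 without fear case 6 (25 of 44 negative), -0.051 without control 3 and -0.075 without control 4. Some marker lists of other cell types leaned the same way with 0 genes called: the median was -0.13 for oligodendrocytes (8 of 10 negative) and -0.20 for endothelial and mural cells (9 of 11 negative). Summed, the first ran from 1968 to 2628 CPM in controls and from 1809 to 2645 CPM in fear case libraries, and the second from 46.2 to 58.2 and from 41.4 to 53.9 CPM. Other lists leaned the opposite way, also with 0 genes called: the median was 0.033 for neurons (3 of 10 negative) and 0.047 for neurogenesis (4 of 13 negative). The part of these cell types in the histone values was not tested.

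The same libraries stood at the ends for many genes. Control 3 was the highest of the 12 libraries for 17 of the 43 tested genes and among the top 3 for 29. Control 4 was the highest for 7. Fear case 6 was the lowest for 20 and among the bottom 3 for 32, whereas within the control group it was control 6 that was most often among the bottom 3, for 20 genes. Choroid plexus markers also differed between libraries: all 12 listed genes had a negative log2 fold change, and an unadjusted p under 0.05 was reached by all 12 with edgeR and limma-voom and by 7 with DESeq2. None was called by edgeR, DESeq2 or limma-voom with all 12 libraries, whereas edgeR called 1 with no filter on low counts and all 12 without fear case 6. Their summed level was 787 to 2230 CPM in controls and 30.1 to 1527 CPM in fear case libraries, and no marker was at 0 throughout. Fear case 6 was the fear case library with 1527 CPM, so the lowest sum over the 68 histone genes and a high choroid plexus sum were in the same library. The part of choroid plexus RNA and of the Rn45s share in the histone values was not tested.

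**Figure D2:**
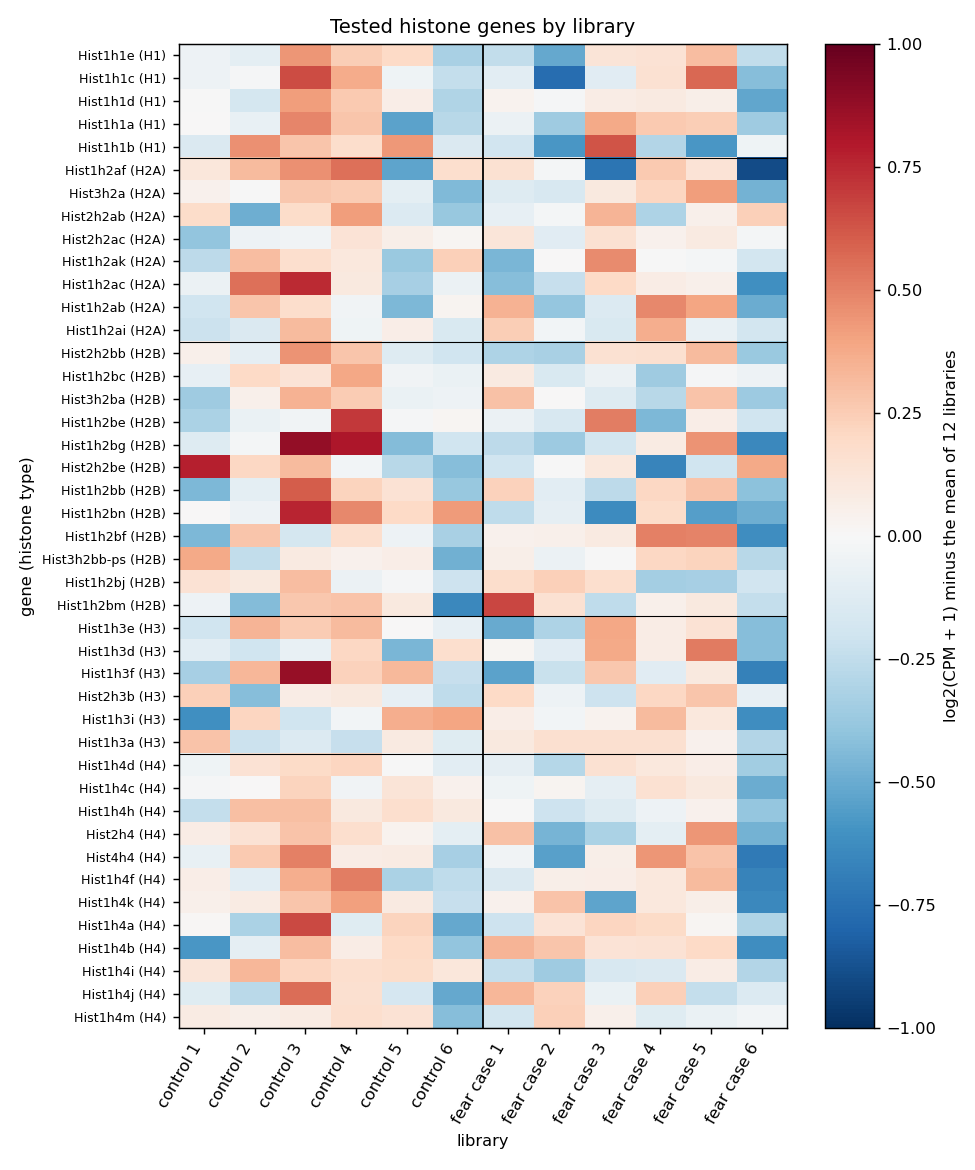
Level of each of the 43 tested histone genes (rows, grouped by type and ordered by mean level) in each library (columns), as log2(CPM + 1) minus its mean over the 12 libraries. Red columns are prominent in control 3 and control 4 and blue ones in fear case 6, while fear case 3, 4 and 5 are mixed.

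H1 genes encode the linker histones, which bind the DNA between nucleosomes. All 3 of the abundant H1 genes overlapped between the groups. Hist1h1e (chr13:23620629-23622558, minus strand) ran from 83.5 to 142 CPM in controls (median 111) and from 73.0 to 130 CPM in fear case libraries (median 101). Its log2 fold change was -0.14 (SE 0.13, adjusted p = 0.85 by edgeR's quasi-likelihood test). Without single libraries it was nearer 0 when control 3 (-0.055) or fear case 2 (-0.0565) was left out, and farther without control 6 (-0.21) or fear case 5 (-0.22). Only fear case 2 lay below every control. Part of the annotated exon of Hist1h1e overlaps that of Hist1h2be on the same strand, and reads there cannot be assigned to one of them.

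Hist1h1c (chr13:23738808-23740367, plus strand) ran from 39.5 to 73.8 CPM in controls (median 45.7) and from 27.2 to 70.2 CPM in fear case libraries (median 43.2), and its log2 fold change was -0.20 (SE 0.17, adjusted p = 0.83). Hist1h1d (chr13:23553262-23560686, plus strand) ran from 15.5 to 26.2 CPM in controls (median 19.8) and from 13.2 to 20.7 CPM in fear case libraries (median 20.04), and its log2 fold change was -0.11 (SE 0.13, adjusted p = 0.90). For both, control 3 was the highest library, and 5 of the 6 fear case values of Hist1h1d lay close together between 19.1 and 20.7 CPM. The value of Hist1h1c was -0.076 without control 3, -0.094 without fear case 2 and -0.38 without fear case 5. That of Hist1h1d was -0.019 without control 3, -0.060 without control 4, -0.17 without control 6 and -0.020 without fear case 6. The log2 fold change was 0.026 for Hist1h1a and -0.41 for Hist1h1b (adjusted p = 0.99 and 0.77). Hist1h1t, the linker histone of the testis, was not tested: it had 0 to 9 counts per library although 100% of its 40-base windows occur at no other annotated locus.

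H2A pairs with H2B in the nucleosome, and 1 H2A gene dominated the counts. Hist1h2af (chr13:23533906-23534304, plus strand) alone took 24.6% to 42.8% of the counts on all 68 genes in a library. It ran from 197 to 418 CPM in controls (median 337) and from 152 to 340 CPM in fear case libraries (median 297). Control 5 was low among controls, and fear case 3 and 6 lay below every control. The log2 fold change was -0.34 (SE 0.18, adjusted p = 0.72), and it was -0.22 without fear case 6. Only 16.9% of the 40-base windows of this gene, the read length, are found at no other annotated locus. Windows were searched singly and in annotated transcripts only, whereas reads came in pairs. Such shares are therefore not the share of read pairs that could be placed. Of its windows, 83.1% are shared with Hist1h2ad, which had 0 to 6 counts per library. Reads matching several loci were set aside, so the counts need not show the full level of either gene. Why Hist1h2af was counted so highly among the near-identical H2A genes was not tested.

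Without Hist1h2af, the summed H2A level was nearly the same in both groups. With it, H2A sums had a mean of 412 ± 90.2 CPM of all gene counts in controls (SD, n = 6) and 337 ± 95.3 in fear case libraries (SD, n = 6). Without it, a calculation added after the data were seen, the means were 77.4 ± 13.8 and 75.7 ± 15.5 (SD, n = 6 each), a ratio of 0.978. The sign therefore depends on how H2A is summarised: the median log2 fold change of the 8 tested H2A genes was 0.029, with 4 negative and 4 positive, whereas the log2 ratio of the sums was -0.29 (-0.17 without fear case 6).

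Hist3h2a (chr11:58954685-58956830, plus strand) had the second highest H2A count and, with 97.5% of its windows found nowhere else, reads that can be placed. It ran from 39.9 to 66.0 CPM in controls (median 55.3) and from 39.1 to 73.4 CPM in fear case libraries (median 54.2). The groups overlapped over most of their range, and the log2 fold change was -0.0016 (SE 0.13, adjusted p = 1.00), with a sign that turned when single libraries were left out. Part of its annotated exon overlaps Trim17 on the same strand. Hist2h2ab (chr3:96219865-96220308, plus strand) ran from 3.98 to 8.34 CPM in controls (median 6.14) and from 4.64 to 7.85 CPM in fear case libraries (median 6.05), and the log2 fold change was 0.060 (SE 0.19, adjusted p = 0.97), also of unstable sign. The remaining tested H2A genes had log2 fold changes of -0.51 for Hist1h2ac, -0.075 for Hist1h2ak, 0.096 for Hist2h2ac, 0.12 for Hist1h2ai and 0.20 for Hist1h2ab, with adjusted p from 0.76 to 0.97. Hist1h2ad, Hist1h2ae, Hist1h2ag, Hist1h2ah and Hist1h2an were read but not tested, with 0 to 29 counts in a library, and so was the testis histone gene Hist1h2aa (0 to 4 counts).

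The most abundant H2B genes lay on 3 chromosomes. Hist2h2bb (chr3:96269752-96270132, plus strand) ran from 33.0 to 52.3 CPM in controls (median 37.5) and from 29.1 to 47.6 CPM in fear case libraries (median 36.4), and its log2 fold change was -0.12 (SE 0.13, adjusted p = 0.88). Hist1h2bc (chr13:23684199-23692908, plus strand) ran from 28.0 to 39.1 CPM in controls (median 30.9) and from 23.0 to 31.7 CPM in fear case libraries (median 28.6), and the log2 fold change was -0.19 (SE 0.098, adjusted p = 0.72). Hist3h2ba (chr11:58948920-58949533, plus strand) ran from 6.52 to 11.2 CPM in controls (median 8.64) and from 6.48 to 10.8 CPM in fear case libraries (median 8.22), and its log2 fold change was -0.067 (SE 0.16, adjusted p = 0.96). Each overlapped between the groups, and the sign for Hist3h2ba turned without control 3 and without fear case 6. The log2 fold change of Hist2h2bb was -0.029 without control 3, lay between -0.075 and -0.059 without control 4 or fear case 1, 2 or 6, and was -0.20 without fear case 5. That of Hist1h2bc was -0.12 without control 4.

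Hist1h2bn had the lowest p of all 43 tested histone genes and still did not pass. This H2B gene (chr13:21754123-21754503, plus strand) ran from 1.43 to 3.26 CPM in controls (median 2.13) and from 0.628 to 1.86 CPM in fear case libraries (median 0.952). In 5 of the 6 fear case libraries it lay below every control, and only fear case 4 overlapped them. The log2 fold change was -1.008 (SE 0.32, unadjusted p = 0.0045, adjusted p = 0.37 by edgeR's quasi-likelihood test). Counts were 27 to 70 in controls and 12 to 42 in fear case libraries, and 12.3% of its 40-base windows are found at no other annotated locus, with 71.3% shared with Hist1h2bk. Its log2 fold change lay between -1.22 and -0.85 in the 19 alternatives that kept it, with 0.17 (DESeq2) as the lowest adjusted p.

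The other tested H2B genes had log2 fold changes of -0.45 for Hist1h2bg, -0.27 for Hist2h2be, -0.19 for Hist1h2bj, -0.13 for Hist1h2be, -0.059 for Hist1h2bb, 0.053 for the pseudogene Hist3h2bb-ps, 0.39 for Hist1h2bm and 0.41 for Hist1h2bf, with adjusted p from 0.77 to 0.99. Over the 12 tested H2B genes the median was -0.12, with 9 negative. Hist1h2bh, Hist1h2bk, Hist1h2bl and Hist1h2bp were read but not tested, with 0 to 29 counts in a library, and the testis histone gene Hist1h2ba had 0 to 4.

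H3 genes, whose product carries many of the histone tail marks, were the least read type by uniquely placed counts. Hist1h3e (chr13:23561534-23562369, minus strand) ran from 3.82 to 6.00 CPM in controls (median 5.07) and from 2.89 to 6.23 CPM in fear case libraries (median 4.14), and the log2 fold change was -0.24 (SE 0.21, adjusted p = 0.84). Hist1h3d (chr13:23575763-23577011, plus strand) ran from 1.35 to 2.71 CPM in controls (median 2.02) and from 1.40 to 3.61 CPM in fear case libraries (median 2.32), and its log2 fold change was 0.23 (SE 0.27, adjusted p = 0.89). Hist1h3f (chr13:23544052-23545312, plus strand) ran from 1.38 to 4.48 CPM in controls (median 2.63) and from 0.873 to 2.62 CPM in fear case libraries (median 1.67), and the log2 fold change was -0.63 (SE 0.32, adjusted p = 0.72), or -0.40 without control 3. All 3 overlapped between the groups and fear case 6 was the lowest or next to the lowest fear case library for each of them, but Hist1h3d and Hist1h3f differed in sign. Hist1h3d was at 0.12 with limma-voom, at 0.13, 0.15 and 0.091 without control 5, fear case 3 and fear case 5, and at 0.36 without fear case 6. Hist1h3e was at -0.15 without fear case 1 and -0.37 without fear case 3. Hist1h3e and Hist1h3f share sequence with each other, 68.6% of the windows of Hist1h3e also occurring in Hist1h3f. Reads matching several loci were set aside, so the counts need not show the full level of either gene. The other tested H3 genes had log2 fold changes of -0.16 for Hist1h3i, 0.21 for Hist2h3b and 0.33 for Hist1h3a (adjusted p from 0.91 to 0.97). Hist1h3b, Hist1h3c, Hist1h3g and Hist1h3h were not tested, with 0 to 18 counts in a library.

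H4 forms the central tetramer of the nucleosome with H3 and is among the most conserved proteins known. Of the 12 tested H4 genes 10 had a negative log2 fold change, with a median of -0.13, and 0 passed the test. Hist1h4d (chr13:23581598-23582735, plus strand) ran from 49.1 to 61.7 CPM in controls (median 55.8) and from 41.5 to 59.0 CPM in fear case libraries (median 52.8), and its log2 fold change was -0.13 (SE 0.092, adjusted p = 0.80). Hist1h4c (chr13:23697635-23698454, minus strand) ran from 18.2 to 22.0 CPM in controls (median 19.1) and from 12.96 to 20.9 CPM in fear case libraries (median 18.6), and the log2 fold change was -0.11 (SE 0.11, adjusted p = 0.85), or -0.031 without fear case 6. Both overlapped between the groups, with fear case 6 the lowest library. The value of Hist1h4d was -0.083 without fear case 2 and -0.0735 without fear case 6.

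Hist1h4h and Hist1h4i were the other genes with an unadjusted p under 0.05. Hist1h4h (chr13:23531050-23531519, plus strand) ran from 14.0 to 20.8 CPM in controls (median 18.4) and from 12.5 to 17.2 CPM in fear case libraries (median 15.6), and its log2 fold change was -0.26 (SE 0.11, unadjusted p = 0.027, adjusted p = 0.61 by edgeR's quasi-likelihood test). Only control 1 among the controls reached into the fear case range. Hist1h4i (chr13:22040636-22041362, minus strand) ran from 1.41 to 1.81 CPM in controls (median 1.52) and from 0.741 to 1.35 CPM in fear case libraries (median 0.944), and the log2 fold change was -0.67 (SE 0.28, unadjusted p = 0.024, adjusted p = 0.61). It was the only one of the 43 genes whose groups did not overlap, beside 0.597% of all genes tested, and its counts were low, at 28 to 34 in controls and 18 to 33 in fear case libraries. Here fear case 5, not fear case 6, was the fear case library nearest to the controls.

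The other tested H4 genes had log2 fold changes of -0.27 for Hist1h4k, -0.18 for Hist2h4, -0.15 for Hist4h4, -0.13 for Hist1h4m, -0.12 for Hist1h4f, -0.042 for Hist1h4a, 0.18 for Hist1h4j and 0.22 for Hist1h4b, with adjusted p from 0.83 to 0.99. Hist1h4n was not tested, with 0 to 7 counts in a library.

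**Figure D3:**
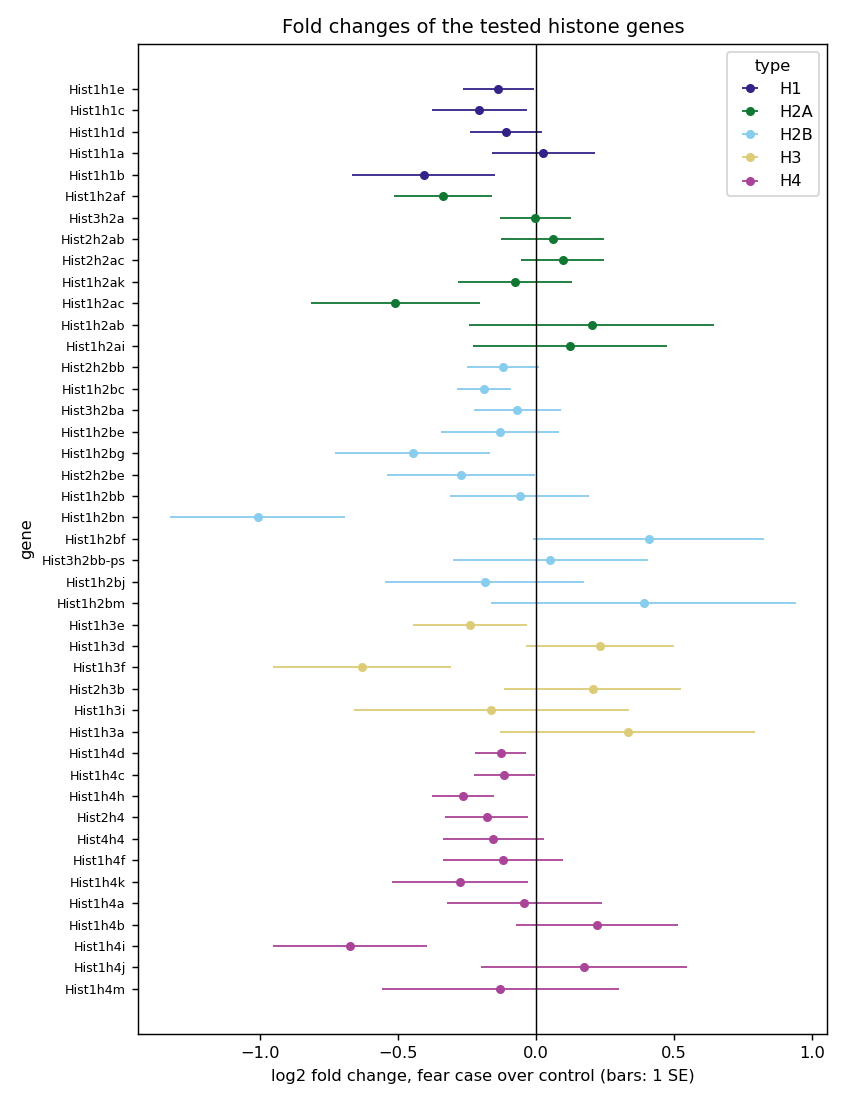
Log2 fold change of fear case over control for the 43 tested histone genes, ordered within type by mean level, with bars of 1 SE and colours for the type. The values run from -1.008 (Hist1h2bn) to 0.41 (Hist1h2bf), and 30 of 43 points lie left of 0.

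Levels between genes were compared per kb of coding length in GENCODE, since the sources used here do not give the annotation that the authors counted on. On this scale Hist1h2af stood at 755 CPM per kb, followed by Hist1h4d at 171, Hist1h1e at 161, Hist3h2a at 141 and Hist2h2bb at 101. Hist1h2bc (78.7 CPM per kb), Hist1h1c (75.8), Hist1h4c (60.4) and Hist1h4h (53.9) came next. No H3 gene came near these, the highest being Hist1h3e at 11.3 CPM per kb. Only 20.3% of the windows of Hist1h3e are found at no other annotated locus, and reads matching several loci were not counted. Among genes with any counts, the 3 testis genes lay at the other end, with 0.0836 CPM per kb for Hist1h1t, 0.0632 for Hist1h2ba and 0.0605 for Hist1h2aa.

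How much of a gene can be told from its copies went along with whether it was read. The share of 40-base windows found at no other annotated locus had a median of 56.5% over the 43 tested genes (9.41% to 100%), of 38.9% over the 17 genes read but not tested, and of 6.56% over the 8 genes at 0 in every library. Those 8 were Hist1h2ao, Hist1h2ap, Hist1h2bq, Hist1h2br, Hist2h2aa1, Hist2h2aa2, Hist2h3c1 and Hist2h3c2. For Hist2h3c1 the share was 64.9% (1159 windows) and for Hist2h3c2 36.1% (354 windows). GENCODE runs 1167 and 377 bases past their stem-loops, against 6 bases for both in RefSeq. Whether the sequence up to the stem-loop is particular to either gene was not examined. A count of 0 allows up to 0.068 to 0.162 CPM, depending on the library (3 counts, counting error only), and it covers reads placed uniquely, not those set aside for matching several loci.

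**Figure D4:**
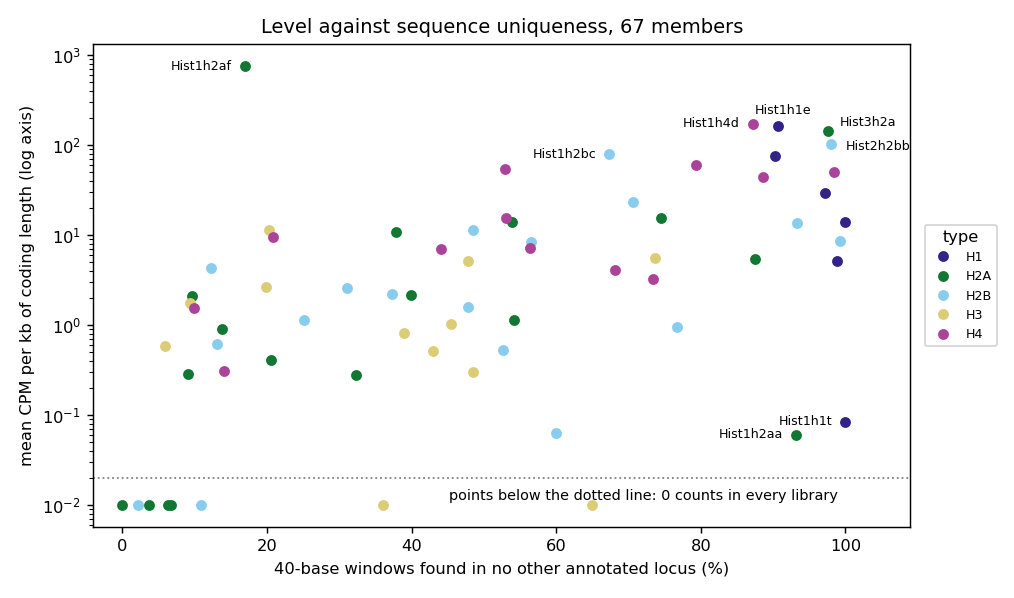
Mean level of 67 histone genes per kb of coding length (log axis; the pseudogene has none) against the share of their 40-base windows found at no other annotated locus, coloured by type, with the 8 genes at 0 drawn below the dotted line. Hist1h2af lies far above the genes of like uniqueness, and the testis genes Hist1h1t and Hist1h2aa lie near the floor although nearly all their sequence is particular to them.

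Genes with a long annotated stretch beyond the stem-loop had higher counts per kb of coding length. Bases past the stem-loop are not part of that length, so any reads counted there raise this level, and their part was not tested. In GENCODE, 23 of the 46 genes with a stem-loop run on for over 100 bases past it, and their median level was 11.2 CPM per kb, against 1.02 CPM per kb for the 23 that end within 100 bases. These medians include genes that were not tested. Of the longer ones 18 were tested and of the shorter ones 11, with medians of 18.2 and 2.55 CPM per kb. Among the tested genes the share of windows found nowhere else moved with this, at a median of 83.3% and 45.5%, and its part in the difference was not tested. In RefSeq (GRCm38.p6), in contrast, 42 of 45 matched genes end within 10 bases of the stem-loop, the exceptions being Hist1h2be, Hist1h2bp and Hist1h3e. Reads beyond the hairpin are therefore counted or not according to the annotation used.

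Many H2A and H2B genes are arranged as divergent pairs that share the stretch between their starts, and 13 such pairs lie within 500 bases of each other. Members of a pair often differed in level. Hist1h2bc stood at 78.7 CPM per kb and its partner Hist1h2ac at 5.38, a ratio of 14.6. Hist1h2bg exceeded Hist1h2ae by a factor of 9.77 per kb and Hist1h2bf exceeded Hist1h2ad by 9.13, while in Hist1h2ak and Hist1h2bn the H2A gene was higher, by 2.55. The share of windows found nowhere else was 87.5% for Hist1h2ac and 67.4% for Hist1h2bc, but 37.9% for Hist1h2ak and 12.3% for Hist1h2bn, and its part in these ratios was not tested. In the pairs Hist1h2ao with Hist1h2bq and Hist1h2ap with Hist1h2br all genes were at 0. Most of the stretch between the most unequal pair lies in RefSeq's 250 bases upstream of Hist1h2ac (GRCm38.p6 chr13:23683960-23684209, minus strand). The GENCODE start of Hist1h2bc, at 23684199, lies within these bases. They are printed with the CCAAT box, the TATAAA element and the octamer ATTTGCAT in capitals on either strand.
Hist1h2ac: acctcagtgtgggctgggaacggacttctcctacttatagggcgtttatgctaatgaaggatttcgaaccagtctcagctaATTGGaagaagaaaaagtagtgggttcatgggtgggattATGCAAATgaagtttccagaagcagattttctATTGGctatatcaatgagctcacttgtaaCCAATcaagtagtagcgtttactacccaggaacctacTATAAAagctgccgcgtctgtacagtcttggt
The 250 bases upstream of 61 matched genes were searched for these 3 motifs on both strands. CCAAT, the box bound by NF-Y, was in 50 of 61 (82.0%) against 33.8% of 32789 other RefSeq promoters, and TATAAA in 29 (47.5%) against 12.3%. ATTTGCAT, the octamer bound by Oct-1, was in 13 (21.3%) against 1.56%, and these were 7 of 17 H2A and 6 of 16 H2B promoters. CCAAT was in all 6 H1, 17 H2A and 16 H2B promoters, in 8 of 10 H3 promoters and in 3 of 12 H4 promoters. The searched stretches of divergent partners can overlap, as for Hist1h2ae and Hist1h2bg. A single site can then be counted for both genes, so these are counts of promoters, not of separate sites.

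Histone variant genes outside this class, many of them made outside S phase from polyadenylated mRNAs, had mostly negative values as well. The list includes H2afx, in which the stem-loop was found. None of the 11 tested of 13 listed was called by edgeR, DESeq2 or limma-voom, 1 had an unadjusted p under 0.05, and the median log2 fold change was -0.087, with 10 of 11 negative, or -0.045 without control 4 and -0.0485 without fear case 6. H3f3b, which encodes the H3 variant deposited at active genes, ran from 138 to 179 CPM in controls (median 151) and from 126 to 182 CPM in fear case libraries (median 154), with a log2 fold change of -0.012. H3f3a, which encodes the same protein, was at -0.087, the linker variant H1f0 at -0.081 and the H2A variant H2afz at -0.13 (adjusted p from 0.80 to 0.99 over these 4 genes by edgeR's quasi-likelihood test). The sign of H3f3b turned without single libraries, and that of H3f3a without fear case 6. The linker variant H1fx ran from 64.0 to 88.9 CPM in controls (median 79.6) and from 50.5 to 76.0 CPM in fear case libraries (median 60.7), and its log2 fold change was -0.34 (SE 0.099, unadjusted p = 0.0024, adjusted p = 0.28). Its groups overlapped.

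No gene that acts on histone mRNA passed the test. All 18 listed were tested, 0 were called by any of the 3 tools, 1 had an unadjusted p under 0.05 by edgeR, and the median log2 fold change was 0.048, with 5 of 18 negative. This median was 0.014 under scaling by library totals, and 0.0225, 0.029 and 0.030 without fear case 1, control 1 and fear case 3. Slbp, which encodes the stem-loop binding protein, ran from 22.3 to 32.7 CPM in controls (median 26.6) and from 25.1 to 29.8 CPM in fear case libraries (median 26.9), with a log2 fold change of 0.014 (adjusted p = 0.99). Npat, the histone gene coactivator of S phase, was at 0.052, Lsm11, a protein of the U7 snRNP, at 0.085, and Sympk, the scaffold of the cleavage complex, at 0.0052 (adjusted p from 0.89 to 1.00). The signs of Slbp and Sympk turned under scaling by library totals and without single libraries. Of the factors of histone mRNA decay, the helicase gene Upf1 was at -0.15 and the uridylyl transferase genes Zcchc11 and Zcchc6 at 0.15 and 0.13 (adjusted p from 0.70 to 0.75).

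Of the histone chaperones, 18 of 20 listed genes were tested, 0 were called by the 3 tools and 0 had an unadjusted p under 0.05. Their median log2 fold change was 0.044, with 5 of 18 negative, and it was 0.013 under scaling by library totals, 0.026 without a filter, 0.072 without fear case 2 and 0.029 without fear case 4. Nap1l1, a chaperone of H2A and H2B, was at 0.11, Atrx, which with Daxx deposits an H3 variant in heterochromatin, at 0.17, and Cabin1, of the HIRA complex, at 0.16 (adjusted p from 0.72 to 0.75 by edgeR).

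No cell cycle gene passed the test. Of 34 listed, 29 were tested, 0 were called by the 3 tools, and 1 (E2f1, log2 fold change of -0.38, adjusted p = 0.70) had an unadjusted p under 0.05. The median log2 fold change was -0.0087, with 16 of 29 negative, and its sign turned in several alternatives. Mki67, a marker of dividing cells, ran from 4.09 to 6.29 CPM in controls (median 5.21) and from 4.15 to 6.02 CPM in fear case libraries (median 5.26), and the log2 fold change was -0.0087 (SE 0.17, adjusted p = 1.00) of unstable sign. Top2a was read at 1.22 to 3.67 CPM in controls and 1.40 to 3.35 CPM in fear case libraries, with a log2 fold change of 0.17, and Ccnb1 at 0.097 to 1.009 and 0.340 to 1.78 CPM, with 0.79 (adjusted p = 0.93 and 0.78). Pcna and Mcm6, of the replication fork, had log2 fold changes of -0.018 and -0.028 (adjusted p = 0.98 for both), each of unstable sign. The marker lists of oligodendrocyte precursors and of neurogenesis gave no called gene. The first summed to 240 to 287 CPM in controls and 240 to 273 in fear case libraries, and the second to 566 to 626 and 605 to 644 CPM. These lists are not confined to dividing cells, so their sums were not taken as a measure of them.

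**Figure D5:**
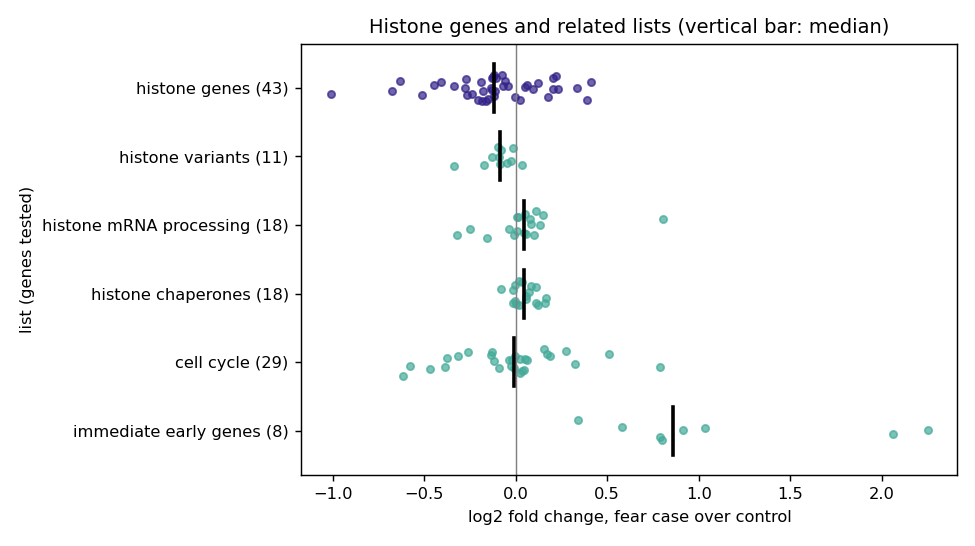
Log2 fold change of fear case over control for the tested genes of the histone class and of 5 related lists, each point a gene and each vertical bar a median. The medians run from -0.12 for the histone genes to 0.048 for histone mRNA processing, and lie apart from the immediate early genes, with a median of 0.86.

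The immediate early genes give the scale of a change that passed in these libraries. All 8 listed were tested and 6 were called higher (Fos, Npas4, Arc, Junb, Btg2 and Fosb), beside 0.0481% of all genes tested. The median log2 fold change was 0.86 and 0 of the 8 were negative, in a list chosen with results of these libraries known. Egr1 and Nr4a1 did not pass.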

How the data were processed

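Each library has 1 deposited table of raw counts, whole numbers with no normalization, indexed by gene symbol. Per the submitters' processing notes the authors used cutadapt, TopHat, Bowtie, HTSeq and the build mm10; the sources used here do not give versions, annotation or strand setting. Per the labels' protocols, library preparation used Clontech's SMARTer total RNA kit, and reads were pairs of 40 bp.

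Testing used edgeR 4.0.16 under R 4.3.3 (filterByExpr with minimum count 10 and total 15, TMM, quasi-likelihood test, no covariates, Benjamini-Hochberg adjustment over 14564 genes, calls under 0.05). CPM uses TMM-scaled library sizes, except sums over a type, which use plain gene totals. Standard errors were obtained from the F statistic, as the size of the log2 fold change over its square root. At the median depth of 21.6 M counts, 1 CPM is 21.6 counts. Adjusted p-values in the text are from this test unless another tool is named. Alternatives, including DESeq2 1.42.0 and limma 3.58.1, stand in the closing section. The test was checked on simulated counts. Replicates are separate libraries; the labels do not state separate mice, so p-values measure the spread between libraries, which may be partly technical.

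The histone genes and lists were chosen with earlier results of these data known. Named genes were the 3 tested genes of each type with the highest mean CPM, called genes, and the 3 with the lowest p; in related lists the 2 highest by CPM, the 2 lowest by p, called genes and a fixed set (Slbp, Npat, Lsm11, H3f3a, H3f3b, H2afz, H1f0, Mki67, Top2a). Coordinates, transcripts and windows came from GENCODE M21 (68 of 68 symbols matched; 23384 of all 24421) and promoters from RefSeq (GRCm38.p6; Hist1h2ap, Hist1h2bc, Hist1h3a, Hist1h3f, Hist2h2be, Hist2h4 and Hist3h2bb-ps not matched). Gene-level intervals and floors cover counting error only.

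The labels do not say that replicate numbers pair the libraries, so no block was used in the main test.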

Additional observations from a re-analysis of the deposited data

Results flagged for a closer look

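In 6 of 102 groups of 6 libraries examined (5.88%, where chance gives about 1 in 20), 1 library stood apart from the other 5 of its group. For Hist1h1d it was fear case 6, at 13.16 CPM against 19.14 to 20.7 in the other fear case libraries, and for the H3 variant gene H3f3a it was also fear case 6, at 53.55 CPM against 83.68 to 85.16. Nap1l1 was low in control 1, at 335.4 CPM against 367.9 to 383.5. Ccnb1 was high in fear case 3, at 1.779 CPM against 0.3404 to 0.8115. Junb and Egr1 were high in fear case 1, at 77.83 CPM against 55.32 to 60.08 and at 290.4 CPM against 150.4 to 188.7. Both histone values are low in the library with the highest Rn45s share; the part of that share was not tested.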

How the results depend on the processing

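No histone gene of this class was called under any of 20 alternatives, and their median log2 fold change stayed negative in each (-0.17 to -0.036). The number of all genes called was 15, and it moved to 33 with library totals only, to 37 without a filter and to 63 with DESeq2, and from 9 (without control 3 or without fear case 2) to 128 (without fear case 6) with 1 library left out. Counts of 12 to 18 were given by the other settings. With the 10 most abundant genes left out, 14 genes were called.

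The replicate number as a block called 18 genes and 0 histone genes, with a median of -0.11 and 29 of 43 negative. Same-numbered libraries did not deviate together: correlations of their deviations ran from -0.27 to 0.11, and 1 of 6 correlated best with its own number. This check gave no sign of pairing but cannot exclude a factor shared by libraries of the same number.

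With library totals only, Slbp was at -0.0166 and Sympk at -0.0209, turned from small positive values. With 1 library left out at a time, signs turned for genes near 0: Hist3h2a (-0.0979 to 0.0817), Hist2h2ab (-0.0321 to 0.1784), Hist3h2ba (-0.1459 to 0.0112), H3f3a (-0.1251 to 0.0043), H3f3b (-0.062 to 0.0417), Slbp (-0.0313 to 0.0797), Sympk (-0.0305 to 0.0602), Mki67 (-0.0621 to 0.0612), Pcna (-0.0454 to 0.0208) and Mcm6 (-0.0736 to 0.0307). The cause was not tested. Egr1 passed without a filter and without fear case 6.

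The log2 ratio of the summed level was -0.23 for all histone genes, and -0.13 without fear case 6. Without Hist1h2af this ratio was -0.16 for all histone genes and -0.032 for H2A. By type it lay between -0.28 and -0.075 for H1, -0.39 and -0.17 for H2A, -0.25 and -0.12 for H2B, -0.29 and -0.065 for H3, and -0.23 and -0.083 for H4 with 1 library left out, and moved by less than the control SD throughout. The 25 genes not tested had at most 29 counts in a library.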
